A study of Homo sapiens with 35 samples.

Results

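Knockdown of JARID1D, the Y-linked histone demethylase encoded by KDM5D, was compared with a luciferase control in the RNA-seq libraries of the series. Both groups are DU145, an established line of prostate carcinoma that was grown from a metastasis in the brain. A short hairpin RNA targeted either JARID1D (shJARID1D) or luciferase (shLuciferase), which has no target in human cells. The labels give neither the hairpin sequences, the number of hairpins per target, nor the time after knockdown, and no other treatment. By these labels 4 of the 35 samples of the series were taken, 2 libraries per group. The remaining RNA-seq libraries, 2 of DU145 with a hairpin against the chromatin reader ZMYND8 (shZMYND8), make 6 in all and served to estimate the spread and to show where the JARID1D knockdown differed. After genes marked as not quantified in at least 1 library were dropped, 28443 of 28503 genes were left, and 15867 of them had enough counts to be tested.

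Lysine 4 of histone H3 carries methyl groups at promoters and enhancers, and the KDM5 enzymes remove them. KDM5D is the Y-linked copy of KDM5C, while KDM5A and KDM5B are autosomal relatives, and loss or low expression of KDM5D has been described in prostate cancer. Much of what follows concerns the interferon response, in which sensors of foreign nucleic acid induce interferon, and a complex that holds STAT2 and IRF9 then binds a short motif, the interferon-stimulated response element, at antiviral genes.

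The libraries held 20.7 M to 27.4 M fragments, and 3 counts, the limit that a count of 0 allows, amount to 0.128 to 0.129 CPM (counts on a scale set by each library's normalized total), counting error only. The chi-square statistic per gene between libraries of a group was 34.2 for shLuciferase, 12.1 for shJARID1D and 13.9 for shZMYND8. Replicates were not stated to be separate cultures, so each p-value measures only how far these libraries lie apart, and that spread may be technical. Of the line's markers, KRT8, KRT18, EPCAM, CDH1 and VIM were present, while the prostate gene KLK3 was at 0 in the 4 libraries. Unless stated otherwise, an adjusted p is from the quasi-likelihood test of edgeR, adjusted by Benjamini-Hochberg across the genes tested with a threshold of 0.05, and ± is the standard error of a log2 fold change with 2 libraries per group. The word rose or fell is used of genes past that threshold, and counts of list members that rose or fell are edgeR's.

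KDM5D itself was at 58.1 and 61.0 CPM in the shLuciferase libraries and at 19.6 and 17.9 CPM in the shJARID1D libraries. The groups lay far apart against the gap between libraries, and the shZMYND8 libraries, at 55.5 and 59.9 CPM, lay with the controls. The fall was 3.18-fold (log2 fold change -1.67 ± 0.12, adjusted p = 0.000831), and it held without any 1 of the 6 libraries (-1.73 to -1.60, adjusted p of 0.000185 to 0.0184). A lower level in a bulk library cannot tell fewer expressing cells from less RNA per cell.

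The autosomal and X-linked relatives did not pass the threshold. KDM5A was at 96.2 and 81.7 CPM in shLuciferase and 111 and 118 CPM in shJARID1D (0.37 ± 0.12, adjusted p = 0.104, and 0.0233 without shLuciferase replicate 1). KDM5B differed by -0.05 ± 0.12 and KDM5C, the X-linked copy, by 0.01 ± 0.12. Of 24 genes for demethylases and methyltransferase complexes acting on this lysine, none passed by edgeR, DESeq2 or limma voom, where 5.75% of all genes tested passed by edgeR, and 8 had an unadjusted p under 0.05, as did 23.6% of all genes tested. With the replicate number as a block 3 were called lower. Their median log2 fold change was -0.09, against 0.001 over all genes tested.

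Among 9 tested Y-linked genes with X-linked copies, a list that leaves out KDM5D, DDX3Y alone fell by edgeR and limma voom. Over all genes tested 2.79% fell by edgeR. DESeq2 called 2 members lower, as did edgeR with a replicate block. DDX3Y, an RNA helicase gene, was at 211 and 204 CPM in shLuciferase, 101 and 101 CPM in shJARID1D, and 212 and 246 CPM in shZMYND8 (-1.04 ± 0.12, adjusted p = 0.00654). Its levels in the JARID1D knockdown lay at about the same point in both libraries, below all others. Without shJARID1D replicate 1 or 2 the call was lost, at -1.06 to -1.02 over the libraries left out, with an adjusted p of up to 0.0662. The X-linked copy DDX3X, added after the values were seen, was at 703 and 608 CPM in shLuciferase and 512 and 528 CPM in shJARID1D (-0.33 ± 0.12, adjusted p = 0.136). Reads shared between the copies may have been divided by the authors' software. The other tested members of this list ran from -0.41 for the deubiquitinase gene USP9Y (adjusted p = 0.0817) to 0.27 for the demethylase gene UTY (adjusted p = 0.231). NLGN4Y and PCDH11Y had no counts.

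**Figure D1:**
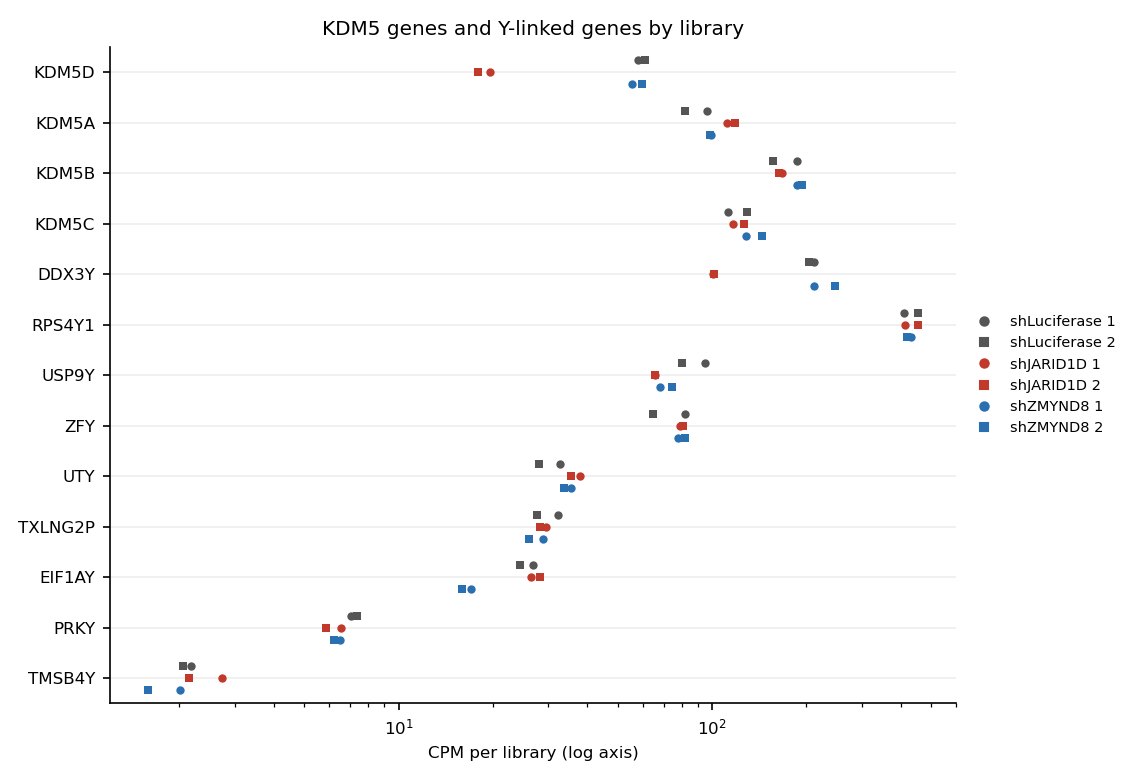
Levels of the KDM5 genes and of the 9 tested Y-linked genes with X-linked copies, in CPM on a log axis. Each library has 1 point, circles for replicate 1 and squares for replicate 2. KDM5D and DDX3Y stand to the left of both other groups in shJARID1D, and the remaining genes lie closer to shLuciferase there. Of the Y-linked genes with X-linked copies 1, not DDX3Y, was lower in shZMYND8 than in shLuciferase.

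Across all genes tested, 912 (5.75%) passed the threshold, 469 higher (2.96%) and 443 lower (2.79%) in shJARID1D. Scaling by library totals alone gave 709 higher and 294 lower, and moved the median of all genes by less than 0.1 on the log2 scale. DESeq2 called 585 genes higher and 774 lower, limma voom 405 and 414, and edgeR with a replicate block 1039 and 1034. A fit of only the 4 libraries compared called 250 and 199. Counts of list members given below for these alternatives stand against these totals. The genes that rose moved further, with a median log2 fold change of 0.88 against -0.66 for those that fell, and 190 (1.2%) rose but 49 (0.309%) fell at least 2-fold. The shJARID1D and shLuciferase libraries did not overlap for 8236 genes (51.9%), 27% with the knockdown higher and 24.9% with it lower.

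The count rested on both shJARID1D libraries. Without replicate 1 of them 16 genes passed, and without replicate 2, 22 passed, while 2145 and 1130 passed without shLuciferase replicate 1 or 2, and 407 and 394 without shZMYND8 replicate 1 or 2. A group left with a single library is assumed to vary like the others. None of the 912 genes changed sign in any of these 6 fits, and 911 of them were tested in all 6. For genes whose groups did not overlap, leaving out 1 library could not turn the sign. At least 789 of the called genes were of this kind, a count that left out those averaging under 5 CPM. Called genes at such lower levels include further ones without overlap, among them SLC2A3 and PTGS2. Only 8 genes passed in all 6 fits: IGFBP3, F2RL2, SFXN3, SLCO2B1, TFPI2, M6PR, KDM5D and DKK3. Every other gene named below as risen or fallen lost its call in at least 1 of these fits, in each case without at least 1 of the shJARID1D libraries.

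**Figure D2:**
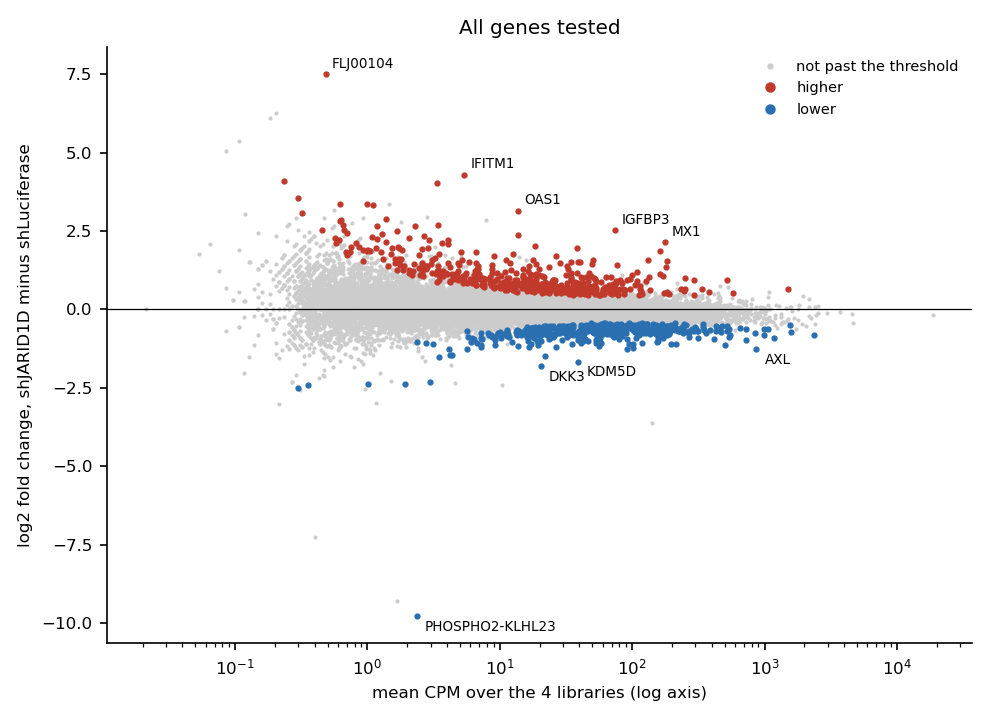
Log2 fold change of shJARID1D over shLuciferase for all 15867 genes tested, plotted against the mean CPM over the 4 libraries on a log axis, with genes past the threshold in red (469 higher) and blue (443 lower). Most of the larger rises lie at low to middle levels, and AXL lies furthest right of the labelled falls.

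The 8 genes that passed throughout include 5 that rose and encode secreted or membrane proteins. IGFBP3, a carrier of insulin-like growth factors, was at 25.6 and 18.5 CPM in shLuciferase and 143 and 112 CPM in shJARID1D, 5.77-fold higher (2.53 ± 0.18, adjusted p = 0.000831). F2RL2, a protease-activated receptor gene, was at 5.28 and 6.13 CPM against 18.9 and 20.3 CPM (1.78 ± 0.14, adjusted p = 0.00107). The organic anion transporter gene SLCO2B1 was at 6.43 and 6.08 CPM against 17.7 and 17.4 CPM (1.48 ± 0.13, adjusted p = 0.00148). In each of these 3 the libraries of a group lay much closer together than the groups did. TFPI2, an inhibitor of serine proteases, was at 9.84 and 8.48 CPM against 22.3 and 25.8 CPM (1.39 ± 0.15, adjusted p = 0.00529). M6PR, a receptor that carries enzymes to lysosomes, was at 61.9 and 64.1 CPM against 131 and 142 CPM (1.11 ± 0.11, adjusted p = 0.00418). SFXN3, a mitochondrial carrier gene, also rose in all 6 fits, from 23.8 and 27.1 CPM to 71.4 and 79.5 CPM (1.57 ± 0.13, adjusted p = 0.00107). DKK3, a secreted member of the Dickkopf family of Wnt modulators, had the largest fall where the mean over the 4 libraries was 5 CPM or more. It was at 29.7 and 33.7 CPM in shLuciferase and 8.48 and 9.56 CPM in shJARID1D, 3.51-fold lower (-1.81 ± 0.15, adjusted p = 0.00107). In shZMYND8 it was at 23.2 and 27.7 CPM (-0.32 ± 0.14 against shLuciferase, adjusted p = 0.157).

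Interferon-stimulated genes made up much of the top of the list, since 9 of the 12 largest rises were among them. The exceptions were IGFBP3, F2RL2 and NPR3, the clearance receptor gene for natriuretic peptides, which was at 2.81 and 2.91 CPM in shLuciferase and 11.4 and 9.26 CPM in shJARID1D (1.85 ± 0.24, adjusted p = 0.00758). Of 42 interferon-stimulated genes listed, all were tested, 27 rose, none fell and 15 did not pass, where 2.96% of all genes tested rose. With a replicate block 40 rose. Every member had a log2 fold change above 0, from 0.42 for IFIT2 to 4.30 for IFITM1, and the median was 1.38, against 0.001 over all genes. The libraries of both groups did not overlap for any of the 42, as for 51.9% of all genes tested. The list was chosen with earlier results of these data known. All 42 members were also called higher in shZMYND8 against the same shLuciferase libraries. These counts are therefore not independent of the choice of list and describe its members only.

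The response element was looked for as letters in promoters. The 300 bases from 250 before to 50 after the start of each gene, from RefSeq for build GRCh38.p14, were searched on both strands for the core GAAANNGAAA, in which N is any base and overlapping matches were allowed. Shown, as examples of a match in members of different role, are 100 bases each from 4 members that rose: ISG15 is a ubiquitin-like modifier, OAS3 makes the messenger that activates an RNA-degrading enzyme, IFIH1 senses double-stranded RNA, and IFI6 is a small membrane protein. Capitals mark the core on either strand, and each sequence runs 5′ to 3′ on the gene's strand. They lie at chr1:1013339-1013438 (plus strand), chr12:112938286-112938385 (plus strand), chr2:162318789-162318888 (minus strand) and chr1:27672294-27672393 (minus strand).
ISG15: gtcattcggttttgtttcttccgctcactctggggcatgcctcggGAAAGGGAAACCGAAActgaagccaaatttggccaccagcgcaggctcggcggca
OAS3: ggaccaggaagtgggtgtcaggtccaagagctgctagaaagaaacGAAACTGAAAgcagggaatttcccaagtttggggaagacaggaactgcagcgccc
IFIH1: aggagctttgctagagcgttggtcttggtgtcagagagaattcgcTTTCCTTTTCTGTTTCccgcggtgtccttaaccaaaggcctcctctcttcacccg
IFI6: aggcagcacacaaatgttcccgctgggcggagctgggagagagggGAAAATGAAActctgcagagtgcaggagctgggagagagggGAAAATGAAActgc
In ISG15 and IFIH1 a pair of cores overlaps, and in IFI6 the core stands 2 times within a repeated stretch.

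The core was present in 3.65% of 27305 promoters in the table and in 2.84% of the 11413 that matched a tested gene. Among 355 matched promoters of genes that rose it was present in 10.7%, and among 327 of genes that fell in 1.53%. Outside the interferon list, 7.23% of 332 promoters of risen genes held it. Of the interferon-stimulated genes, 14 of 23 matched promoters of risen members held it, as did 7 of 10 of members that did not pass. The GAS motif TTCNNNGAA, another element of interferon-regulated genes, was present in 7.61% of promoters of risen genes, 5.81% of those of fallen genes and 6.34% of all matched ones. Matches are described here as letters only.

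Sensors and transcription factors of the response rose in part. The sensor gene IFIH1 was at 15.0 and 9.72 CPM in shLuciferase, 46.7 and 34.6 CPM in shJARID1D, and 93.4 and 47.7 CPM in shZMYND8 (1.71 ± 0.31, adjusted p = 0.0191). IRF7, a factor that drives interferon genes, was at 15.4 and 16.3 CPM against 65.3 and 56.6 CPM (1.95 ± 0.27, adjusted p = 0.00805). IRF9, a DNA-binding subunit of the complex at the response element, was at 24.7 and 17.1 CPM against 59.9 and 59.7 CPM (1.52 ± 0.21, adjusted p = 0.00833). All 3 were higher in both knockdown libraries than in either control. For IFIH1 and IRF7, taken from the largest rises, this was a condition of the choice. STAT2, a partner of IRF9 that was named after its values were seen, did not pass, although its libraries did not overlap either. It was at 97.9 and 74.9 CPM against 170.0 and 138 CPM (0.83 ± 0.22, adjusted p = 0.0555).

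Effectors showed the largest folds and the widest spread between libraries. MX1, an antiviral GTPase gene, was at 79.2 and 52.0 CPM in shLuciferase and 328 and 254 CPM in shJARID1D (2.15 ± 0.35, adjusted p = 0.0144). OAS1 was at 4.34 and 1.16 CPM against 29.1 and 19.8 CPM (3.15 ± 0.60, adjusted p = 0.0213), OAS2 at 6.56 and 2.23 CPM against 25.7 and 19.9 CPM (2.37 ± 0.53, adjusted p = 0.0349), and OAS3 at 75.8 and 57.8 CPM against 215 and 183 CPM (1.57 ± 0.27, adjusted p = 0.0161). Across these 4 genes replicate 1 lay above replicate 2 in both groups, and the groups did not overlap. For MX1, OAS1 and OAS2, taken from the largest rises, the lack of overlap was a condition of the choice. IFITM1, a membrane protein that hinders virus entry, had 21 and 3 counts in shLuciferase and 340 and 136 counts in shJARID1D. It stood at 0.894 and 0.129 CPM against 14.6 and 5.83 CPM (4.30 ± 0.94, adjusted p = 0.0331), so its fold rests on few control counts. Its neighbour copies may share reads with it: IFITM3 rose from 24.3 and 16.1 CPM to 65.0 and 51.3 CPM (1.53 ± 0.27, adjusted p = 0.0168), and IFITM2 was at 8.52 and 7.92 CPM against 13.5 and 12.1 CPM (0.64 ± 0.17, adjusted p = 0.0549). Both were added after their values were seen. Without shLuciferase replicate 1 the log2 fold change was largest, and without replicate 2 smallest or nearly so: it ran from 3.497 to 6.25 for IFITM1, from 2.49 to 4.40 for OAS1 and from 1.80 to 3.35 for OAS2 over the libraries left out. Over the same fits it ran from 1.87 to 2.48 for MX1, and the adjusted p reached 0.0964.

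The level of the whole list moved between replicates as well as between groups. Summed over the 42 members it was 2373 and 1704 CPM in shLuciferase, 4835 and 4087 CPM in shJARID1D, and 10144 and 5469 CPM in shZMYND8, so replicate 1 was the higher in each group. The number of risen members was 35 and 12 without shLuciferase replicate 1 or 2, 0 and 1 by edgeR without shJARID1D replicate 1 or 2, and 32 and 31 without shZMYND8 replicate 1 or 2. In the 2 fits without shJARID1D replicate 1 or 2 the list median was 1.22 and 1.53. All 42 members stayed above 0 in all 6 fits, which the lack of overlap between the groups in every member fixed in advance. DESeq2 called 29 and limma voom 21 of them. Of 12 leukocyte markers, the sum was 39.0 and 43.2 CPM in shLuciferase and 52.5 and 48.8 CPM in shJARID1D, with PTPRC, CD3E, CD3D, MS4A1 and FCGR3A at 0. Of the 3 that were tested none passed, and 2 had an unadjusted p under 0.05, against 23.6% of all genes tested. The part of such cells in the rise was not tested.

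Against the ZMYND8 knockdown, 2490 genes (15.7%) differed, 1114 higher (7.02%) and 1376 lower (8.67%) in shJARID1D. Of the 469 genes that rose against shLuciferase, 319 did not differ from shZMYND8 past the threshold, 106 were higher and 44 lower. Of the 443 that fell, 198 did not differ, 238 were lower and 7 higher. Of the 42 interferon-stimulated genes 11 were lower in shJARID1D than in shZMYND8 and none was higher. This count was 23 without either shLuciferase library, 2 and 1 without a shJARID1D library, and 2 and 27 without shZMYND8 replicate 1 or 2. IFIT2, a binder of foreign RNA, was at 135 and 119 CPM in shJARID1D against 519.9 and 313 CPM in shZMYND8 (a difference of -1.71 ± 0.27, adjusted p = 0.0037), and it was chosen after its values were seen. IRF9 did not differ past the threshold, with a difference of 0.20 ± 0.20 (adjusted p = 0.525). Both knockdowns were set against the same shLuciferase libraries, and the list median against them was 1.38 in shJARID1D and 2.07 in shZMYND8.

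**Figure D3:**
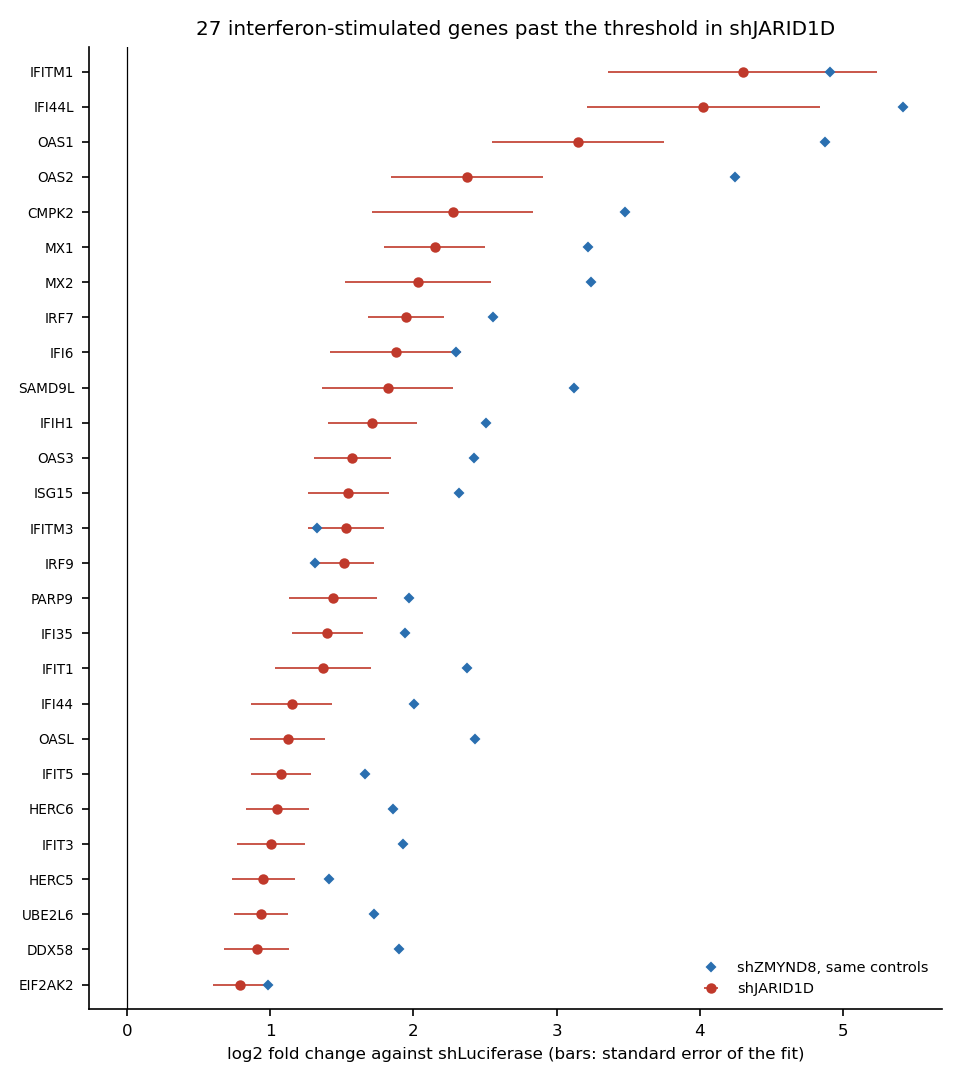
Log2 fold change against shLuciferase of the 27 interferon-stimulated genes that rose, of 42 tested, with circles and standard errors for shJARID1D and diamonds for shZMYND8, which shares the control libraries. The diamonds lie further right than the circles for most of the genes shown, with IFITM3 and IRF9 as exceptions.

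NF-kB targets and cytokines moved less. Of 25 tested, 3 rose, 1 fell and 21 did not pass, against 2.96% higher and 2.79% lower over all genes, with a median of 0.43. DESeq2 called 5 higher and a replicate block 10, and a fit of only the 4 libraries compared called 2 higher. RELB, a subunit of NF-kB, was at 20.4 and 30.3 CPM in shLuciferase and 41.6 and 50.3 CPM in shJARID1D (0.86 ± 0.18, adjusted p = 0.029). IRF1, a factor induced by interferon gamma, was at 49.6 and 43.6 CPM against 75.2 and 71.2 CPM (0.65 ± 0.14, adjusted p = 0.0297). PTGS2, the inducible cyclooxygenase gene, was near the detection limit in shLuciferase, at 0.128 and 0.214 CPM against 1.29 and 0.986 CPM (2.69 ± 0.52, adjusted p = 0.0221). BIRC3, an inhibitor of apoptosis and an NF-kB target, went the other way. It was at 374 and 292 CPM in shLuciferase, 208 and 202 CPM in shJARID1D, and 745 and 750.1 CPM in shZMYND8. It was thus lower than in shLuciferase (-0.70 ± 0.14, adjusted p = 0.0227) and lower than in shZMYND8 (-1.87 ± 0.14, adjusted p = 0.000269). The risen calls were lost without a shJARID1D library, and most also without a shZMYND8 library. The list median was 0.53 and 0.36 without shJARID1D replicate 1 or 2, and 0.38 and 0.45 without shLuciferase replicate 1 or 2.

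Falls past 2-fold after DKK3 and KDM5D included genes of varied function, described here by role. AXL, a receptor tyrosine kinase gene, was at 1125 and 1328 CPM in shLuciferase, 407 and 615 CPM in shJARID1D and 776 and 1013 CPM in shZMYND8 (-1.26 ± 0.20, adjusted p = 0.0139). MYLK, the myosin light chain kinase gene, was at 144 and 140.0 CPM against 59.6 and 62.1 CPM (-1.22 ± 0.12, adjusted p = 0.00333). TAGLN, which encodes an actin-binding protein of contractile cells, was at 17.8 and 29.0 CPM against 8.78 and 11.4 CPM (-1.21 ± 0.23, adjusted p = 0.02). In all 3 both knockdown libraries lay below both controls, as the choice of the largest falls required. CLDN11, a tight junction gene, was at 67.7 and 89.0 CPM against 26.6 and 42.9 CPM (-1.17 ± 0.21, adjusted p = 0.0179). ESRP2, a splicing regulator of epithelial cells, was at 28.7 and 36.4 CPM against 11.35 and 11.96 CPM (-1.48 ± 0.18, adjusted p = 0.00702). The glycosyltransferase gene GALNT10 was at 119.8 and 138 CPM in shLuciferase, 55.6 and 51.8 CPM in shJARID1D, and 118 and 137 CPM in shZMYND8 (-1.26 ± 0.13, adjusted p = 0.00418).

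Further falls of this size were in TFCP2L1, a transcription factor gene (-1.27 ± 0.22), SLC4A8, a bicarbonate transporter gene (-1.19 ± 0.16), and KIF5C, a kinesin gene (-1.17 ± 0.15). A pair of enzymes of lysine breakdown fell. AASS was at 10.2 and 9.94 CPM in shLuciferase and 4.67 and 4.16 CPM in shJARID1D (-1.19 ± 0.18, adjusted p = 0.0115). ALDH7A1 was at 57.4 and 55.6 CPM against 28.0 and 27.8 CPM (-1.02 ± 0.11, adjusted p = 0.00654), with libraries of each group nearly at the same level. RNF4, a ubiquitin ligase gene for SUMO-tagged proteins, was at 130.5 and 145 CPM in shLuciferase, 65.9 and 62.6 CPM in shJARID1D, and 132 and 132 CPM in shZMYND8 (-1.10 ± 0.12, adjusted p = 0.00437).

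**Figure D4:**
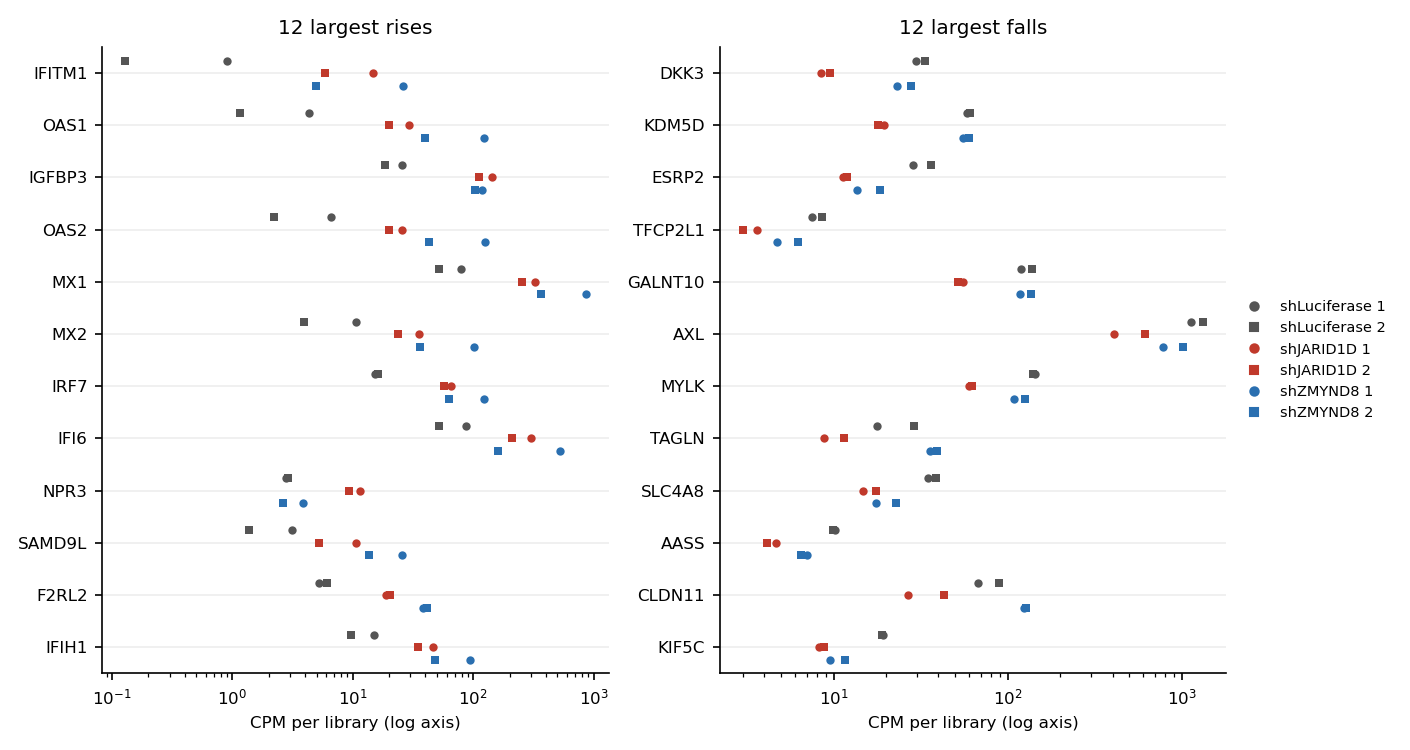
Levels in CPM on log axes of the 12 largest rises and 12 largest falls of shJARID1D against shLuciferase among called genes whose mean was 5 CPM or more, with 1 point per library and the shZMYND8 libraries beside them. The 2 shLuciferase libraries lie furthest apart for IFITM1, OAS1 and OAS2, and close together for most of the falls.

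Receptors and ligands of growth factor signalling held a few changes of moderate size. Of 24 genes of EGFR and MET signalling and related receptors, 4 fell, 1 rose and 19 did not pass, against 2.79% lower and 2.96% higher over all genes, with a median of -0.26. DESeq2 called 6 lower, and 8 were lower with a replicate block. MET, the receptor of hepatocyte growth factor, was at 509 and 578 CPM in shLuciferase and 269 and 294 CPM in shJARID1D (-0.95 ± 0.14, adjusted p = 0.00973), and FGF2, a fibroblast growth factor gene, at 119 and 96.1 CPM against 64.7 and 63.3 CPM (-0.75 ± 0.13, adjusted p = 0.0168). AXL is in this list too, while EFNA1, a ligand of Eph receptors, rose from 34.6 and 31.1 CPM to 51.2 and 50.4 CPM (0.63 ± 0.13, adjusted p = 0.0291). The fallen calls were lost without shJARID1D replicate 1, and most also without replicate 2. The list median was -0.19 and -0.27 without shJARID1D replicate 1 or 2, and -0.28 and -0.13 without shLuciferase replicate 1 or 2.

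YAP targets, genes switched on by the Hippo pathway's coactivator, split. Of 24 tested, 4 fell, 2 rose and 18 did not pass, against 2.79% lower and 2.96% higher over all genes, with a median of -0.28. DESeq2 called 7 lower and a replicate block 10, and a fit of only the 4 libraries compared called 2 lower. AXL and TGFB2, a growth factor gene at 77.0 and 62.5 CPM in shLuciferase and 39.1 and 39.1 CPM in shJARID1D (-0.83 ± 0.13, adjusted p = 0.0129), were among the falls. IGFBP3 and the Hippo kinase gene LATS2 rose, the latter from 50.4 and 56.4 CPM to 81.8 and 102 CPM (0.79 ± 0.14, adjusted p = 0.0188). Of 21 TGF-beta targets 2 rose, LTBP1 (0.54 ± 0.12) and BHLHE40 (0.71 ± 0.15), and 1 fell, TGFB2, with a median of -0.18. Neither rise was called in a fit of only the 4 libraries compared. The calls of fallen YAP targets were lost without shJARID1D replicate 1, most without replicate 2, and some without a shZMYND8 library. The YAP median was -0.17 and -0.40 without shJARID1D replicate 1 or 2, and -0.27 and -0.19 without shLuciferase replicate 1 or 2.

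Integrins, the receptors by which cells hold the matrix, fell in 3 of 15 tested, 1 rose and 11 did not pass, against 2.79% lower and 2.96% higher over all genes, with a median of -0.29. DESeq2 and a replicate block each called 5 lower, and a fit of only the 4 libraries compared called 1 lower. ITGB3 was at 34.0 and 32.4 CPM in shLuciferase, 17.9 and 20.6 CPM in shJARID1D, and 48.2 and 50.9 CPM in shZMYND8 (-0.79 ± 0.13, adjusted p = 0.0139). ITGB1, the most widely used beta subunit, was at 1967 and 1702 CPM against 1284 and 1312 CPM (-0.50 ± 0.12, adjusted p = 0.0434), a call lost with scaling by library totals alone or by upper quartiles. ITGA6 also fell (-0.63 ± 0.15, adjusted p = 0.0455), and ITGA11, a collagen receptor with 0.2981 and 0.2999 CPM in shLuciferase, was at 0.943 and 1.46 CPM in shJARID1D (1.99 ± 0.46, adjusted p = 0.0384). Of 26 collagen and laminin genes none passed by edgeR, where 7 had an unadjusted p under 0.05, near the 23.6% of all genes, and the median was -0.09. DESeq2 called 1 of them higher, and limma voom called 0. Against shZMYND8, 15 of these 26 were lower in shJARID1D and 1 was higher, against 8.67% and 7.02% of all genes, and the lower ones numbered 7 to 16 over the libraries left out. The calls of fallen integrin genes were lost without a shJARID1D library, and most also without a shZMYND8 library. The integrin median was -0.18 and -0.39 without shJARID1D replicate 1 or 2, and -0.38 and -0.15 without shLuciferase replicate 1 or 2.

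Epithelial genes fell in 7 of 33 tested, 2 rose and 24 did not pass, against 2.79% lower and 2.96% higher over all genes, with a median of -0.13. DESeq2 called 4 higher, and 5 were higher with a replicate block. Limma voom called 4 lower, and a fit of only the 4 libraries compared called 1 lower. The keratin gene KRT7 was at 1038 and 1505 CPM in shLuciferase and 684 and 755 CPM in shJARID1D (-0.82 ± 0.17, adjusted p = 0.0256), and KRT18 at 334 and 427 CPM against 221 and 256 CPM (-0.67 ± 0.15, adjusted p = 0.0349). ESRP2 had the largest fall of the list. CLDN1, a tight junction gene, rose from 22.1 and 24.7 CPM to 39.5 and 52.2 CPM (0.97 ± 0.15, adjusted p = 0.0129), and TJP3, a scaffold of the same junctions, from 4.13 and 2.87 CPM to 8.06 and 6.86 CPM (1.09 ± 0.26, adjusted p = 0.0404). Of 19 mesenchymal genes TAGLN alone fell and none rose by edgeR, while DESeq2 called 1 higher. An unadjusted p under 0.05 was found for 7, against 23.6% of all genes, and the median was 0.10. The summed level of 8 stromal markers, to which TAGLN belongs, was 20.1 and 30.4 CPM in shLuciferase and 12.5 and 13.8 CPM in shJARID1D, with DCN at 0, and its part in the falls was not tested. The calls of fallen epithelial genes were lost without a shJARID1D library, and most also without a shZMYND8 library. The epithelial median was -0.22 and -0.11 without shJARID1D replicate 1 or 2, and -0.11 and -0.23 without shLuciferase replicate 1 or 2.

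Genes of invasion and metastasis were examined as a list of 14 recalled from the study, which is not independent evidence of a direction, and 10 of them were tested. PLAU, the urokinase gene, was the only member to pass by edgeR, where 5.75% of all genes tested passed and 2.79% fell. It was at 866 and 1045 CPM in shLuciferase, 489 and 489 CPM in shJARID1D, and 862 and 909 CPM in shZMYND8 (-0.97 ± 0.13, adjusted p = 0.00758). It lay below both controls in both knockdown libraries, and the adjusted p reached 0.0882 without a shJARID1D library. CD44, an adhesion receptor gene, was at 176 and 165 CPM against 132 and 122 CPM (-0.42 ± 0.11, adjusted p = 0.0579), and EGFR at 161 and 160.1 CPM against 114 and 119 CPM (-0.46 ± 0.12, adjusted p = 0.0601). These were called lower by DESeq2 (adjusted p = 0.0106 for CD44 and 0.0104 for EGFR) and with a replicate block (0.0235 and 0.0213). Both were lower in shJARID1D than in shZMYND8, CD44 by -0.80 ± 0.11 (adjusted p = 0.00255) and EGFR by -1.09 ± 0.13 (adjusted p = 0.00101). The urokinase receptor gene PLAUR was at 44.8 and 69.6 CPM in shLuciferase and 72.6 and 88.8 CPM in shJARID1D (0.50 ± 0.19, adjusted p = 0.153), and SNAI2, a repressor of epithelial genes, at 2.81 and 2.27 CPM against 5.10 and 3.34 CPM (0.73 ± 0.27, adjusted p = 0.137). The adjusted p was 0.737 for VEGFA, 0.56 for MMP1, 0.657 for MMP9, 0.871 for MMP14 and 0.67 for ZEB1. MMP2 and TWIST1 had no counts in the 4 libraries, MMP3 had 4 and 1 against 9 and 6, and MMP7 had 1 and 0 against 1 and 0. The list median was 0.07.

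Immediate early genes, which respond to growth signals and stress within minutes, rose in 6 of 31 tested, against 2.96% of all genes, none fell by edgeR and 25 did not pass, with a median of 0.21. DESeq2 and a replicate block each called 1 lower. FOS, a subunit of AP-1, was at 33.2 and 31.0 CPM in shLuciferase, 70.8 and 50.1 CPM in shJARID1D and 36.7 and 28.5 CPM in shZMYND8 (0.91 ± 0.18, adjusted p = 0.0235). It was also the only member higher than in shZMYND8 (0.89 ± 0.18, adjusted p = 0.0115), while 9 were lower, against 7.02% and 8.67% of all genes tested. Among the lower ones was KLF4 (-1.06 ± 0.19, adjusted p = 0.0073). Against shLuciferase 11 members were called higher in shZMYND8. ATF3 was at 11.11 and 12.04 CPM against 22.8 and 19.7 CPM (0.88 ± 0.15, adjusted p = 0.0148), and KLF4 at 9.45 and 10.2 CPM against 21.9 and 18.0 CPM (1.02 ± 0.20, adjusted p = 0.0233). The nuclear receptor gene NR4A1 was at 14.1 and 16.2 CPM against 30.5 and 22.8 CPM (0.81 ± 0.17, adjusted p = 0.0276). For these 4 genes shJARID1D replicate 1 was above replicate 2, and both were above the controls. The risen calls were lost without a shJARID1D library, and some also without a shZMYND8 library. The list median was 0.28 and 0.16 without shJARID1D replicate 1 or 2, and 0.17 and 0.31 without shLuciferase replicate 1 or 2.

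Genes of mitosis showed small shifts, mostly of 1 sign. Of 35 G2/M genes 34 lay below 0 and 1 above, the median was -0.28, and 15 had an unadjusted p under 0.05. Over all genes tested 23.6% had such a p, 11.7% with a lower level, while 2.79% fell and 2.96% rose. A single member passed, AURKA, a mitotic kinase gene at 308 and 343 CPM in shLuciferase and 182 and 218 CPM in shJARID1D (-0.70 ± 0.14, adjusted p = 0.0234). The summed level was 9888 and 9637 CPM against 7400 and 8451 CPM, and 5066 and 6281 CPM in shZMYND8. The AURKA call was lost without a shJARID1D library, and DESeq2 called 7 members lower. The list median was -0.20 and -0.42 without shJARID1D replicate 1 or 2, and -0.30 and -0.27 without shLuciferase replicate 1 or 2. Compared directly, 16 members were higher in shJARID1D than in shZMYND8, against 7.02% of all genes, a count of 4 to 23 over the libraries left out. Of 33 S phase genes only GINS3, a replication factor gene, rose (0.73 ± 0.13, adjusted p = 0.0165). Replication-dependent histone genes, which have near copies, did not pass in any of 23 by edgeR, where 3 had an unadjusted p under 0.05. Their median was 0.01, and 14 were higher than in shZMYND8, against the same 7.02%, a count of 3 to 21 over the libraries left out.

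Metabolic and stress lists held single changes. In glycolysis and hypoxia 5 of 34 rose and 2 fell, against 2.96% and 2.79% of all genes, with a median of -0.07. Risen members numbered 3 and 7 without shLuciferase replicate 1 or 2, 0 without a shJARID1D library and 2 without a shZMYND8 library. SLC2A3, a glucose transporter gene, was at 0.852 and 0.386 CPM in shLuciferase and 3.90 and 3.94 CPM in shJARID1D (2.65 ± 0.37, adjusted p = 0.00848). EGLN3, an oxygen-sensing hydroxylase gene, rose (0.80 ± 0.14), while the glycolytic enzyme gene PGAM1 (-0.68 ± 0.13) and BNIP3, a mitophagy receptor gene (-0.63 ± 0.13), fell. Among p53 targets 3 of 25 rose, against 2.96% of all genes, and none fell by edgeR, with a median of 0.23, and those risen numbered 5 and 4, 0 and 0, and 2 and 2 without replicate 1 or 2 of shLuciferase, shJARID1D and shZMYND8. The 3 were the apoptosis gene BBC3, from 3.96 and 3.94 CPM to 10.2 and 9.22 CPM (1.29 ± 0.18, adjusted p = 0.00922), the antiproliferative gene BTG2 (1.06 ± 0.21) and TP53I3, an oxidoreductase gene (0.57 ± 0.14). DU145 is known for mutant p53.

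In the ER stress and ATF4 list 2 of 29 rose, ATF3 and CREB3L2 (0.82 ± 0.13), and 2 fell, DNAJB9 (-0.77 ± 0.16) and MTHFD2, a mitochondrial folate enzyme gene at 402 and 419 CPM in shLuciferase and 197 and 240.1 CPM in shJARID1D (-0.91 ± 0.13, adjusted p = 0.00972). The median was 0.06. For this and the following lists the shares over all genes tested were 2.96% higher, 2.79% lower and 23.6% with an unadjusted p under 0.05. Of 27 cholesterol genes INSIG1, a brake on sterol synthesis, fell (-0.60 ± 0.12), as did RPL4 of 30 ribosomal protein genes (-0.58 ± 0.12), SRM, the spermidine synthase gene, of 28 MYC targets (-0.87 ± 0.18), RCOR1 of 21 corepressor genes (-0.58 ± 0.12) and HOXA10 of 28 HOX genes (-0.58 ± 0.14), with adjusted p of 0.0227, 0.0256, 0.028, 0.026 and 0.0457. No other member of these 5 lists passed by edgeR, while DESeq2 called 2 cholesterol, 2 ribosomal protein, 4 MYC target and 3 corepressor genes lower, and 1 cholesterol and 1 ribosomal protein gene higher. The HOXA10 call was lost by limma voom and with scaling by library totals alone or by upper quartiles. Of 30 genes of oxidative phosphorylation none passed by edgeR, and 2 had an unadjusted p under 0.05. Among 9 prostate genes NDRG1 (0.49 ± 0.11) and STEAP1 (0.65 ± 0.16) rose, and of 12 neuronal genes MAP2 rose, from 9.54 and 4.58 CPM to 18.5 and 15.6 CPM (1.27 ± 0.27, adjusted p = 0.0281). In the Wnt list AXIN2, a feedback inhibitor, rose (1.08 ± 0.25) and DKK3 fell, of 23 tested. None of 8 testis genes passed by edgeR, and 0 had an unadjusted p under 0.05.

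**Figure D5:**
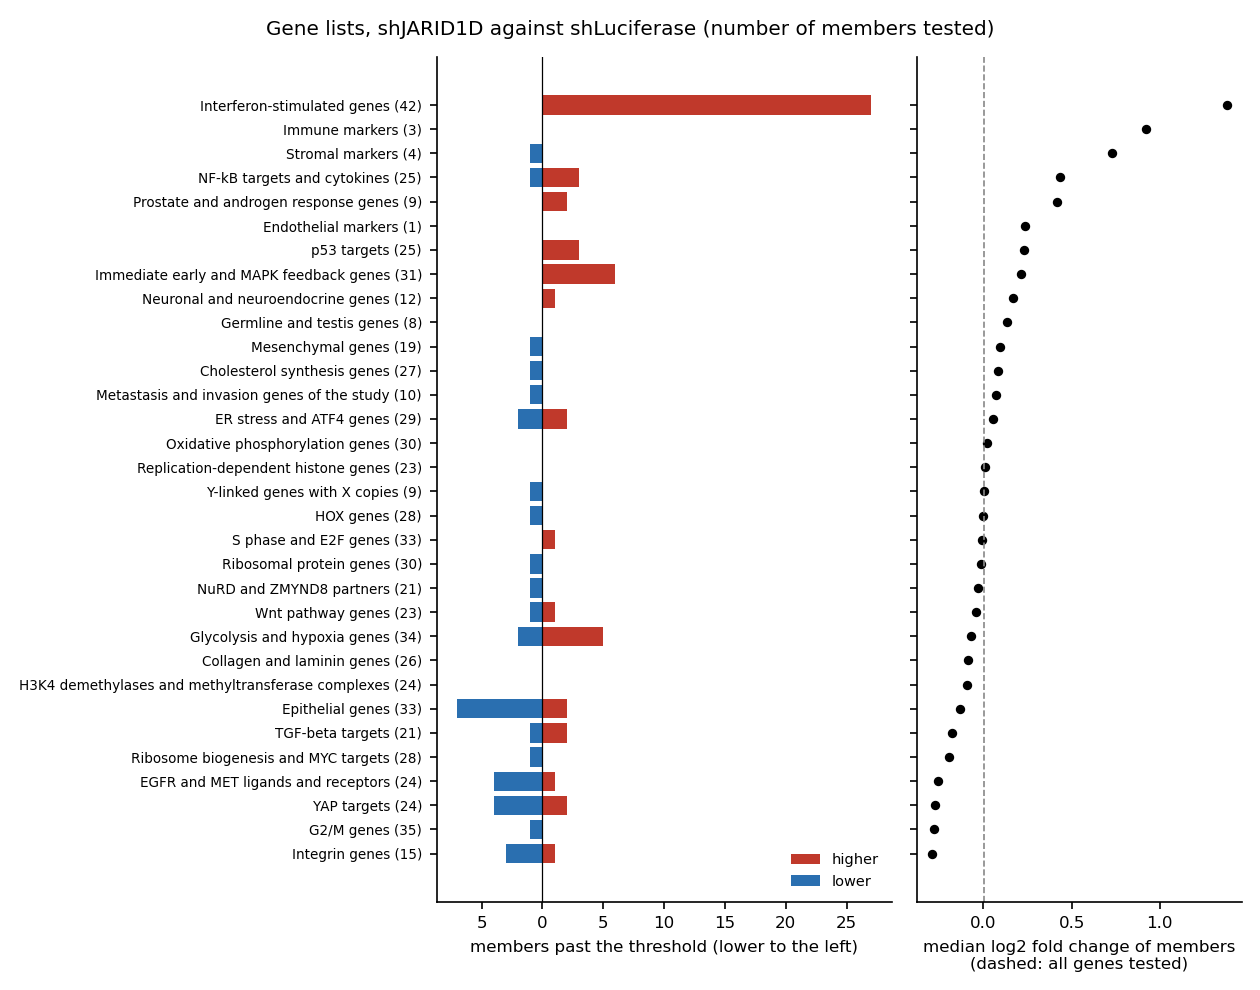
For each gene list, the left panel gives the number of members past the threshold, higher to the right in red and lower to the left in blue, with the number tested in parentheses, and the right panel the median log2 fold change of the members. Interferon-stimulated genes, with 27 risen members and a median of 1.38, lie apart from the other lists, none of which had more than 7 members past the threshold in either direction.

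Some genes were near or at 0 counts in 1 of the groups. FLJ00104 had 0 and 0 counts in shLuciferase and 20 and 25 counts in shJARID1D, at least 7.53-fold higher against a floor of 3 counts per library. CYP19A1, the aromatase gene, had 2 and 1 counts against 13 and 14, a ratio of 9.03 with a 95% counting interval of 2.78 to 46.5. GBP5, a GTPase gene induced by interferon gamma, had 1 and 1 counts against 14 and 12, a ratio of 13.0 with an interval of 3.27 to 113.4. The readthrough entry PHOSPHO2-KLHL23 had 98 and 122 counts in shLuciferase and 0 in both shJARID1D libraries, at least 36.5-fold lower. In shZMYND8 it had 0 and 36 counts, so its libraries differed widely within that group. Its call was lost by DESeq2 and without a filter. It shares exons with PHOSPHO2 and KLHL23, which did not pass (0.49 ± 0.28 and -0.13 ± 0.13, adjusted p = 0.326 and 0.578) and were added after the values were seen, so its counts depend on how shared reads were divided. These intervals cover counting error only. CYP19A1 lost its call in all 6 fits without 1 library, and GBP5 without shLuciferase replicate 2, any shJARID1D library or a shZMYND8 library.

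Genes that changed in the JARID1D knockdown and also differed from the ZMYND8 knockdown were ranked by the size of that difference. C16orf45 was at 18.7 and 21.2 CPM in shLuciferase, 33.0 and 33.6 CPM in shJARID1D, and 7.28 and 7.51 CPM in shZMYND8. It was higher than in either, by 0.74 ± 0.13 against shLuciferase and by 2.17 ± 0.14 against shZMYND8 (adjusted p = 0.0167 and 0.000269). CA11, a member of the carbonic anhydrase family, was at 4.64 and 3.90 CPM, 15.8 and 11.7 CPM, and 3.94 and 3.22 CPM in the same order of groups. NPR3 and TJP3 likewise stood higher in shJARID1D than in both other groups, with differences from shZMYND8 of 1.67 ± 0.23 and 1.65 ± 0.26 (adjusted p = 0.00243 and 0.00429). FBP1, a gluconeogenesis enzyme gene, lay between, at 11.9 and 12.1 CPM in shLuciferase, 6.64 and 6.56 CPM in shJARID1D, and 1.93 and 1.42 CPM in shZMYND8. In the other direction ZC3HAV1L was at 9.54 and 8.48 CPM, 5.78 and 4.89 CPM, and 22.1 and 27.4 CPM. The phosphatase gene PTPRJ was at 186 and 138 CPM, 108 and 102 CPM, and 382 and 379 CPM. TAGLN was lower than in shZMYND8 by -1.90 ± 0.23 (adjusted p = 0.00122), and OAS2 by -1.87 ± 0.47 (adjusted p = 0.0258). In ZC3HAV1L, PTPRJ and BIRC3 the shLuciferase libraries lay between those of the 2 knockdowns. ZMYND8 itself was at 64.7 and 52.7 CPM in shLuciferase, 69.7 and 63.7 CPM in shJARID1D, and 35.5 and 33.2 CPM in shZMYND8, and did not differ past the threshold between the first 2 (0.18 ± 0.13, adjusted p = 0.44).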

How the data were processed

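The deposited table is a Cuffdiff gene count-tracking table per the file headers, and its values are expected counts, fragment counts that the authors' software estimated per gene and library. The submitters' processing notes name Cuffdiff, edgeR 3.12.0, Bowtie 1.1.2, TopHat2 2.0.12 and hg19. Annotation, strand setting and RNA selection were not given in the sources used here. Each fragment is worth 0.882 to 1.16 deposited counts, depending on the library, and such estimates split reads shared by near copies. Genes marked HIDATA in any library, 60 in all, were dropped, and 10 marked as failed were kept. The table's 18 variance columns were not used. Its Rac7 columns were taken as shZMYND8, since an antibody label gives RACK7 as another name of ZMYND8.

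Expected counts were rounded and tested by quasi-likelihood F tests (edgeR 4.0.16, R 4.3.3, TMM factors of 0.966 to 1.057, filterByExpr on the group). All 6 RNA-seq libraries shared 1 fit without a replicate block, with 3 residual degrees of freedom. The biological coefficient of variation was 12.3%. Samples were grouped by their source name. The comparisons were shJARID1D with shLuciferase and shJARID1D with shZMYND8. Sequences and gene names come from RefSeq tables of GRCh38.p14; 20894 names were current symbols, 1858 were synonyms and 5691 were unmatched.

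The members and lists were chosen with earlier results of these data known. Named are the KDM5 genes and ZMYND8, the 12 genes each way that passed with the largest change (mean of at least 5 CPM over the 4 libraries, a single gene name, groups not overlapping), the 6 smallest p-values beyond those, and up to 4 members of each of 32 lists by smallest p. Named too are genes with at most 3 counts in each library of 1 group, the 5 largest differences each way from shZMYND8, and the invasion list. Of these, examples are printed. The lists held 819 entries, 8 matched through a synonym and 2 not matched. They were given no set test.

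Alternatives were other scalings, filters and thresholds, DESeq2 1.42.0, limma 3.58.1 (voom), a fit of the 4 libraries compared, a replicate block, each library left out, the deposited scaling undone, HIDATA genes kept and failed genes dropped. The scripts were tested on simulated data. Tables and figures used matplotlib 3.10.9, pandas 2.3.3, numpy 2.4.6 and Python 3.11.15.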

Additional observations from a re-analysis of the deposited data

How the results depend on the processing

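KDM5D was called lower in each alternative fit that was run. The number of genes changed was 204 without a filter, 449 with only the 4 libraries compared, 77 at an adjusted p under 0.01, 239 at 2-fold or more, and 16 to 2145 over the libraries left out. For genes higher these were 98, 250, 36, 190 and 12 to 965, and for genes lower 106, 199, 41, 49 and 4 to 1180. Library totals alone gave 709 higher and 294 lower, and DESeq2 gave 774 lower. Genes differing from shZMYND8 numbered 1560, 4252 (shJARID1D and shZMYND8 libraries only), 761, 635 and 551 to 4191 under the same settings. The cause of these shifts was not tested. A stricter threshold can only call fewer genes, while fits with fewer libraries called fewer in some cases and more in others. With the replicate block 2073 genes changed, 1039 higher and 1034 lower, and 3785 differed from shZMYND8. Same-numbered libraries correlated in their deviations from the group means at 0.17 (shJARID1D with shLuciferase), 0.09 and 0.10. The labels do not say whether same-numbered libraries were handled together, and this was not tested.

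Reversed in sign, without passing either way, were 5 named genes. KDM5B stood at 0.0344 with library totals and at -0.178 to 0.0761 over the libraries left out, above 0 without shLuciferase replicate 1. KDM5C stood at -0.00049 with relative log expression factors, at -0.00049 by DESeq2 and at -0.0911 to 0.110 over the libraries left out, below 0 without shLuciferase replicate 1 or shJARID1D replicate 2. VEGFA ran from -0.0561 to 0.223, below 0 without shLuciferase replicate 2 or shJARID1D replicate 1. MMP1 ran from -0.0545 to 0.797, below 0 without shLuciferase replicate 1. MMP14 ran from -0.14 to 0.261, below 0 without shLuciferase replicate 1 or shJARID1D replicate 1. Over all named genes and alternatives 1433 values kept their side of the threshold and direction, 367 lost the call and 8 gained it. The endothelial markers had no median at a mean count of at least 50. With 2 libraries a group, changes under the spread between libraries were not detectable.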

Other observations

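Of 779 tested genes on chromosome 6, by RefSeq names of GRCh38.p14, 44 (5.65%) were higher in shJARID1D and 12 (1.54%) lower, against 2.96% and 2.79% over all genes tested. Neighbouring genes there are not independent of each other. The genes named in this part were chosen after their values were seen. Among those that rose was RSPO3, an enhancer of Wnt signalling, at 1.28 and 0.557 CPM in shLuciferase, 5.999 and 5.873 CPM in shJARID1D, and 2.36 and 2.10 CPM in shZMYND8 (2.69 ± 0.34, edgeR adjusted p = 0.00758). The immunoproteasome gene PSMB9 rose from 23.5 and 21.6 CPM to 45.6 and 47.2 CPM, and HCP5, a long noncoding RNA of the MHC region, from 11.7 and 11.2 CPM to 32.7 and 23.5 CPM. HLA-F (1.05 ± 0.25) and HLA-DQB1 (1.03 ± 0.20) rose, whereas the classical class I gene HLA-B was at 338 and 350.0 CPM against 495 and 481 CPM (0.50 ± 0.18, adjusted p = 0.12). HLA genes share reads with near copies.

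Ligands of the natural killer cell receptor NKG2D, a gene cluster on the same chromosome, moved in both directions. RAET1E was at 0.5109 and 0.5997 CPM in shLuciferase, 2.01 and 1.93 CPM in shJARID1D, and 0.771 and 0.687 CPM in shZMYND8 (1.82 ± 0.36, edgeR adjusted p = 0.0235), and RAET1G rose by 1.44 ± 0.33 (adjusted p = 0.0394). ULBP3 fell, from 6.855 and 7.197 CPM to 4.33 and 4.33 CPM (-0.70 ± 0.18, adjusted p = 0.0488), and ULBP1 and ULBP2 differed by 0.02 ± 0.18 and -0.01 ± 0.27 (adjusted p = 0.963 and 0.987).

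Counts by level and gene type are given beside the shares over all genes tested, 2.96% higher and 2.79% lower. How the power to call a change differed between levels was not tested. Of 2548 genes with a mean over 100 CPM, 34 rose (1.33%) and 150 fell (5.89%), with a median log2 fold change of -0.09. Of 2568 genes with a mean of 1 to 5 CPM, 86 rose (3.35%) and 11 fell (0.428%), with a median of 0.13. Of 568 long noncoding RNA entries 10 rose (1.76%) and 2 fell (0.352%), both below the shares over all genes. LINC00707 fell, from 51.73 and 53.03 CPM in shLuciferase to 27.4 and 31.7 CPM in shJARID1D (-0.83 ± 0.19, adjusted p = 0.0379).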
